A study of Mus musculus with 28 samples.

Results

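The genes described here are 31 mouse genes of the piRNA pathway and of transposon defence in germ cells, out of 43280 features in the deposited count tables. They were chosen by name for their known roles, with earlier results of these data known, so shares set against all genes are descriptions. All 31 were present and passed the expression filter that left 17519 genes for testing. They comprise 3 PIWI proteins, 9 Tudor domain proteins, 5 genes for RNA helicases and Mael, and 7 piRNA biogenesis factors. The others are 2 arginine methylation genes, 4 genes grouped as transposon repressors and the transcription factor Mybl1.

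Germ cells were sorted from mouse testis by a PIWIL2-eGFP reporter, and polyA RNA was sequenced from 28 libraries in 14 groups of 2. Groups were Stra8 WT or Stra8 KO, from mice of mixed C57BL/6 and 129s4/SvJae origin, at 0, 12, 18, 48, 72, 96 and 120 h after retinoic acid, the 0 h mice having had none. Stra8 encodes a factor that germ cells need for meiotic entry. All mice, the 0 h controls included, had first been given WIN 18,446 for 7 days; it blocks the making of retinoic acid and holds spermatogonia at a common point. The labels name neither the Stra8 allele nor the ages, and do not say whether a library is 1 animal or a pool. P-values therefore describe only how these libraries vary, and that variation could be technical.

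piRNAs are small RNAs that guide PIWI proteins, the germline branch of the Argonaute family, to transposon transcripts, which are then cut or, in the nucleus of fetal germ cells, silenced by DNA methylation. Tudor domain proteins bind methylated arginines of the PIWI proteins and hold the machinery together in cytoplasmic granules, where helicases, a mitochondrial nuclease and end-modifying enzymes make the mature piRNA. Spermatogonia carry transposon-derived piRNAs with Piwil2, and a second, abundant population appears at the pachytene stage of meiosis, loaded on Piwil1 and Piwil2 and transcribed under Mybl1.

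Total counts were 5757921 to 10147341 in the WT and 914126 to 9517360 in the KO libraries. In KO at 72, 96 and 120 h the second library was shallow (914126 to 1079696 reads). A deposited table of CPM (counts scaled to the library total, also used below) has 3 columns for these groups that match no count library. Below, their values stand in for the shallow libraries, but whether they come from the same libraries is not known. Stra8 stood at 7.65 to 1042 CPM in the WT libraries and 0 to 62.1 CPM in those labelled KO, where the first 48 h library had 62.1 against 2.09 CPM in its partner. Of germ cell markers, Kit, a receptor of differentiating spermatogonia, stood at 22.4 to 1392 CPM and Zbtb16, a marker of undifferentiated spermatogonia, at 161 to 997 CPM. Of 10 pachytene and spermatid markers Tnp2 was at 0 in all 28 libraries and Ldhc, up to 11.3 CPM, was above 0 in all. Of 8 Leydig cell markers Insl3 was at 0 in all 28, while Star (3.99 to 13.0 CPM) and Nr5a1 (0.985 to 19.4 CPM) were above 0 in all. Mitochondrial genes took 1.98 to 3.06% of counts in the first and 3.21 to 6.79% in the second WT libraries, and 4.55 to 8.55% in KO; the part of this share in the results below was not tested. The tables count whole genes, so reads of transposons themselves were not analysed here.

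Because these genes act together, the letters around their start sites were compared first. RefSeq promoter windows on GRCm38.p6, from 250 bases before the start site to 50 after, were matched for 25 of the 31 genes (35 windows). Rnf17, Piwil2, Tdrd6, Mybl1, Tex15 and Morc1 had no entry. The E-box CACGTG, which reads the same on both strands, was found in 14 of the 35 windows (40%), belonging to 11 genes, and in 7.15% of all 32851 windows. The member windows were also richer in G and C (median 61.3% against 52.7%) and in the pair CG (median 20 against 7 per window), and the E-box holds a CG. Shares for the other motifs searched on both strands were 9 of 35 against 19.98% for the E2F-type TCCCGC, 7 of 35 against 23.3% for the MYB-type CNGTTA, and 11 of 35 against 37.41% for CCAAT. The 150 bases before the start site are shown for 5 genes with the E-box there and for 3 genes without one, all lying outside the gene as GENCODE annotates it; capitals mark CACGTG or TCCCGC, the latter on either strand, and sequences run 5′ to 3′.
Tdrd1, chr19:56826059-56826208, plus strand: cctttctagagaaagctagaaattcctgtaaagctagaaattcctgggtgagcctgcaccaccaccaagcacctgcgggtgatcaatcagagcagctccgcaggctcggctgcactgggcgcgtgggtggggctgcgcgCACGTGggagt
Tdrd9, chr12:111971409-111971558, plus strand: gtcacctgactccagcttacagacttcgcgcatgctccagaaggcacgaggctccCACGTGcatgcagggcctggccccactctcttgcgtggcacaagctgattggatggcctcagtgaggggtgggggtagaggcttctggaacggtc
Stk31, chr6:49395454-49395603, plus strand: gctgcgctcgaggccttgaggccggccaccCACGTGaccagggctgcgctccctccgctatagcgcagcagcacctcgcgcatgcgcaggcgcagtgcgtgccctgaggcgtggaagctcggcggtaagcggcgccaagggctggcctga
Fkbp6, chr5:135350045-135350194, minus strand: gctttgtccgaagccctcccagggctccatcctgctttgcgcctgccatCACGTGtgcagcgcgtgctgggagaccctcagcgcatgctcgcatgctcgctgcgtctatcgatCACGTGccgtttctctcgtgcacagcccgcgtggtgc
Pld6, chr11:59787658-59787807, minus strand: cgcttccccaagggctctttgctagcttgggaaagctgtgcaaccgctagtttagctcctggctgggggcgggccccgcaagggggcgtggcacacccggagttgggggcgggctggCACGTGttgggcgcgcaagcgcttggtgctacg
Mov10, chr3:104818564-104818713, minus strand: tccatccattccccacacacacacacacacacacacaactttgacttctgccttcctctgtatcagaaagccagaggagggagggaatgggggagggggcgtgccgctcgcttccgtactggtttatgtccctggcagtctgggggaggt
Asz1, chr6:18109062-18109211, minus strand: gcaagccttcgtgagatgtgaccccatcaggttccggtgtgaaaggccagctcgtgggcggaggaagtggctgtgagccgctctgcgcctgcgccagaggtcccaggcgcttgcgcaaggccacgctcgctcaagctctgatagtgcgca
Tex19.2, chr11:121118678-121118827, minus strand: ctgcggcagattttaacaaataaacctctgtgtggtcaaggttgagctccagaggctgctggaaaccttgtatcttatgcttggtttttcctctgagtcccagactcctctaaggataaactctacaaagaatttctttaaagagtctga

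The E-box lay from 246 bases before to 38 bases after the start site, and Tdrd9, Fkbp6 and Piwil1 each had a pair of them in 1 window. Genes with and without the motif were found among those that fell and those that did not, and the difference between these groups was not tested. Of the 16 genes with a window that fell late in WT, 6 held it (Ddx25, Ddx4, Mov10l1, Stk31, Tdrd1 and Tdrd9), and of the 8 with a window that passed no threshold, 4 held it (Fkbp6, Mael, Piwil1 and Pld6). Wdr77, which rose, held it too. A match in these windows is a description of letters and not a bound site.

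**Figure D1:**
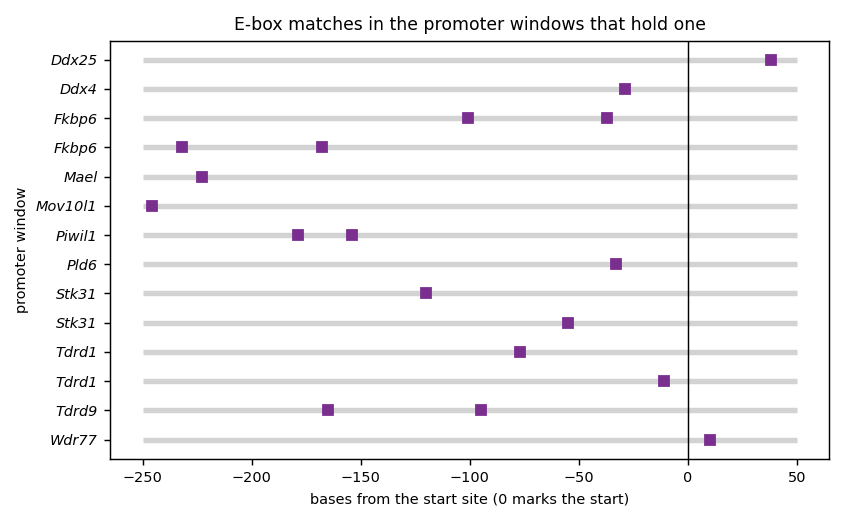
Position of each CACGTG match (squares) along the 14 promoter windows that hold one, in bases from the start site, with grey bars for the window searched and a gene named again for each further start site. Matches run from 246 bases before to 38 bases after the start.

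Compared per exon length, as RPKM (CPM divided by exon length in kilobases), the genes spanned a wide range. Piwil2, the gene named in the sorting reporter, was highest at a median of 393 RPKM over the 28 libraries (range 199 to 603) and in 26 of the 28 singly; in the second WT libraries of 96 and 120 h Fkbp6 was higher. Fkbp6 (median 224 RPKM), Tex19.1 (206), Mov10l1 (179), Mael (173) and Ddx4 (148) followed, and their ranges overlapped, so that their order is not firm. At the low end stood Piwil1 at a median of 7.20 RPKM, Exd1 at 5.15, Mybl1 at 1.42 and Tdrd6 at 0.387. The genes of pachytene piRNA production, Mybl1 and Piwil1, and Tdrd6, a scaffold of the chromatoid body of spermatids, were thus among the 4 lowest in cells sampled up to 120 h after retinoic acid.

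**Figure D2:**
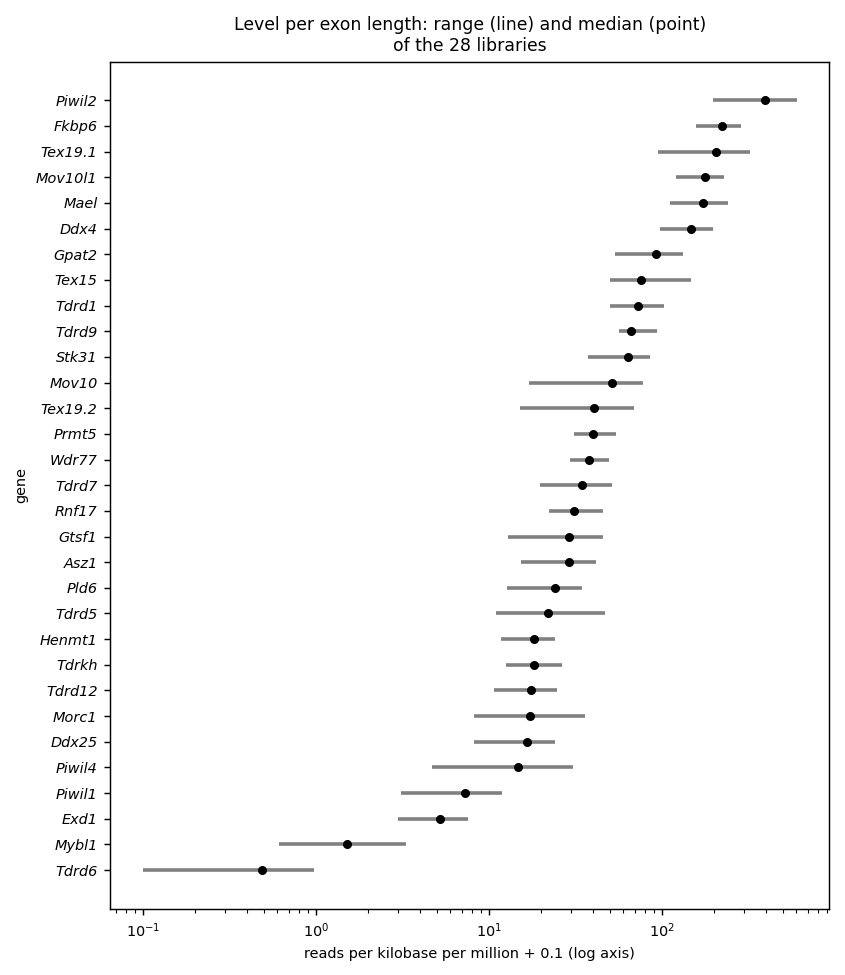
Level of each of the 31 genes in RPKM plus 0.1 on a log axis, as the range (line) and median (point) of the 28 libraries. Piwil2 sits at the top with a median of 393 RPKM and Tdrd6 at the bottom with 0.387 RPKM.

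Over the time course the share of transcripts of most of this gene set fell in the WT libraries. With the 72, 96 and 120 h libraries averaged against 0 h (6 against 2 libraries), 19 of the 31 genes were lower and 1, Wdr77, was higher (edgeR quasi-likelihood test, adjusted p under 0.05, here and below); 31.5% of all genes tested were called in this comparison, 16.5% lower and 15.1% higher. The median log2 change of the 31 genes was -0.44, against -0.01 over all genes. The genes that fell were 2 of 3 PIWI genes, 5 of 9 Tudor genes, 4 of 5 helicase and Mael genes, 4 of 7 biogenesis factors, 3 of 4 repressors and Mybl1; of the arginine methylation genes Wdr77 rose and Prmt5 was not called. In bulk RNA, fewer cells of a type and less RNA per cell cannot be told apart. Markers of undifferentiated spermatogonia fell over the same interval, from a summed 1944 to 2572 CPM at 0 h to 606 to 1431 CPM late, peritubular and stromal markers from 262 to 379 CPM to 95.8 to 179 CPM, and endothelial markers from 49.7 to 70.5 CPM to 13.2 to 40.6 CPM. Markers of differentiating spermatogonia rose, from a summed 492 to 509 CPM to 969 to 1420 CPM, as did Sertoli markers, from 44.9 to 66.4 CPM to 67.7 to 229 CPM, and the other 4 of 9 lists overlapped. By median over the 28 libraries, the peritubular and stromal sum was mostly Col1a1 (102 CPM, the next being Myh11 at 14.9 CPM). The Sertoli sum was mostly Clu (62.9 CPM, the next being Wt1 at 12.9 CPM). The part of these lists in the change was not tested. The decline rests on 2 libraries at 0 h: 12 of the 20 calls held with each library left out in turn, and without 1 of the WT 0 h libraries the calls of Mybl1, Exd1, Tdrd9, Tdrd12, Mov10l1 and Wdr77 (first library) or of Piwil2, Ddx4 and Mov10l1 (second) were lost.

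In KO no gene of the 31 passed the threshold over the same interval by edgeR, which called 2.37% of all genes. Of the 31, 9 had an unadjusted p under 0.05 and 1 was called by DESeq2. Here and below, counts at an unadjusted p or by DESeq2 stand without a share of all genes unless one is given. The direction was downward in 26 of the 31, with a median log2 change of -0.26. The median over all genes was also below 0, at -0.06 by edgeR with RLE size factors and -0.03 by DESeq2. The share of all genes with a downward direction is not given here. Piwil4 came nearest, at -0.78 (SE 0.21, adjusted p = 0.0526), and passed with the replicate number as a block (log2 change -0.79, adjusted p = 0.0268). The test of the difference in late change, KO minus WT, called none of the 31 and none of the 17519 genes (0%) by edgeR. In it, 9 of the 31 (and 2101 of all genes) had an unadjusted p under 0.05, all 9 with the smaller fall in KO. DESeq2 called Morc1, Mov10 and Tdrd5, and 219 of 13686 genes. The largest was Morc1, at 1.05 log2 units (SE 0.26, adjusted p = 0.089), followed by Piwil4, at 0.98 (SE 0.31, adjusted p = 0.176). With the replicate block Morc1 alone passed (log2 difference 1.02, adjusted p = 0.0488).

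**Figure D3:**
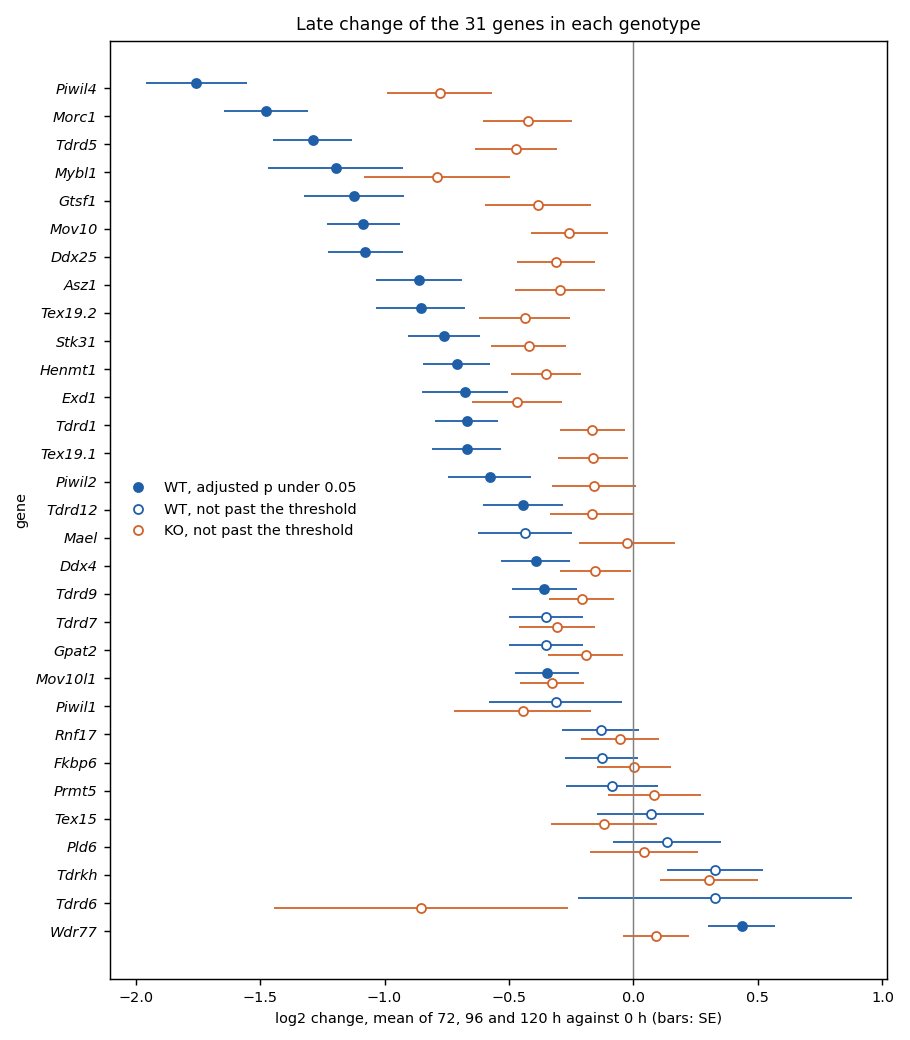
Log2 change from 0 h to the mean of 72, 96 and 120 h for each of the 31 genes in WT (blue) and KO (orange), with bars for the standard error and filled points for an adjusted p under 0.05. WT has 20 filled points, 19 of them below 0, and KO has none.

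Levels averaged over the 7 times differed between genotypes for 19 of the 31 genes, 13 higher and 6 lower in KO (61.3%), in a comparison in which 37.7% of all genes were called, 16.9% higher and 20.7% lower. The members' share of higher calls was 41.9% and of lower calls 19.4%. The 13 were Piwil4, Tex19.2, Mybl1, Mov10, Tdrd5, Tex19.1, Mael, Ddx25, Morc1, Piwil2, Pld6, Mov10l1 and Tdrd1, and the 6 were Tdrd6, Rnf17, Tex15, Tdrd7, Tdrd12 and Wdr77. WT libraries of the same number deviated together at all times, so that the 14 WT libraries are not independent. KO libraries of the same number did so at 72, 96 and 120 h (correlations of 0.509 to 0.567). A fit on 4 means over the 7 times, 1 per genotype and replicate number, called none of the 31 (smallest adjusted p = 0.0521, limma, 13 at an unadjusted p under 0.05) and 511 of 17519 genes. The calls of Tdrd1, Tdrd6, Tdrd12, Pld6 and Wdr77 were also lost when single libraries were left out, in 10, 18, 18, 11 and 4 of the 28 refits, and those of Tdrd1, Tdrd6, Pld6, Wdr77 and Tex15 with a replicate block per genotype.

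At single times most calls came late, while the test of the difference in late change called none of the 31 by edgeR and 3 by DESeq2. By edgeR and by DESeq2 none of the 31 was called at 0 h, where no gene of the 17519 was (0%), nor at 12 h (1.18% of all genes) or 48 h (0.274%); 2, 3 and 5 of the 31 had an unadjusted p under 0.05 there. At 18 h 1 was called (4.1%). At 72 h 4 were called (background 4.57%), at 96 h 8, all higher in KO (25.8%, against 4.41% of all genes called and 2.96% called higher), and at 120 h 10, 9 of them higher (32.3%, against 15.9% called and 7.75% called higher). Of these 23 calls only Piwil4, Tdrd5 and Mov10 at 120 h held with each library left out in turn. Over the 6 late libraries of each genotype, all KO values lay above all WT values for 9 of the 31 genes, against 5.14% of all genes, and all below for none, against 1.63%. These 9 were Piwil2, Piwil4, Tdrd1, Tdrd5, Ddx25, Mov10l1, Mov10, Mael and Tex19.2. Late libraries of the same number deviated together in both genotypes, so that the 6 of each genotype are not independent. With the values of the CPM table for the 3 shallow KO libraries, 5 of the 31 were left, against 5.63% of all genes, since Tdrd1, Ddx25, Mov10l1 and Mael then overlapped at 72 h. Without these 3 libraries there were 11, against 9.94%. Further lists of cell markers moved in the same libraries. Summed Sertoli markers were 149 to 848 CPM in late KO and 67.7 to 229 CPM in late WT, the highest in the shallow 72 h KO library. Peritubular and stromal markers were 241 to 406 against 95.8 to 179 CPM, and undifferentiated spermatogonia markers 1412 to 1822 against 606 to 1431 CPM. Of the 9 lists only the peritubular and stromal one, in which Col1a1 weighs most, did not overlap. The part of these lists in the differences was not tested.

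**Figure D4:**
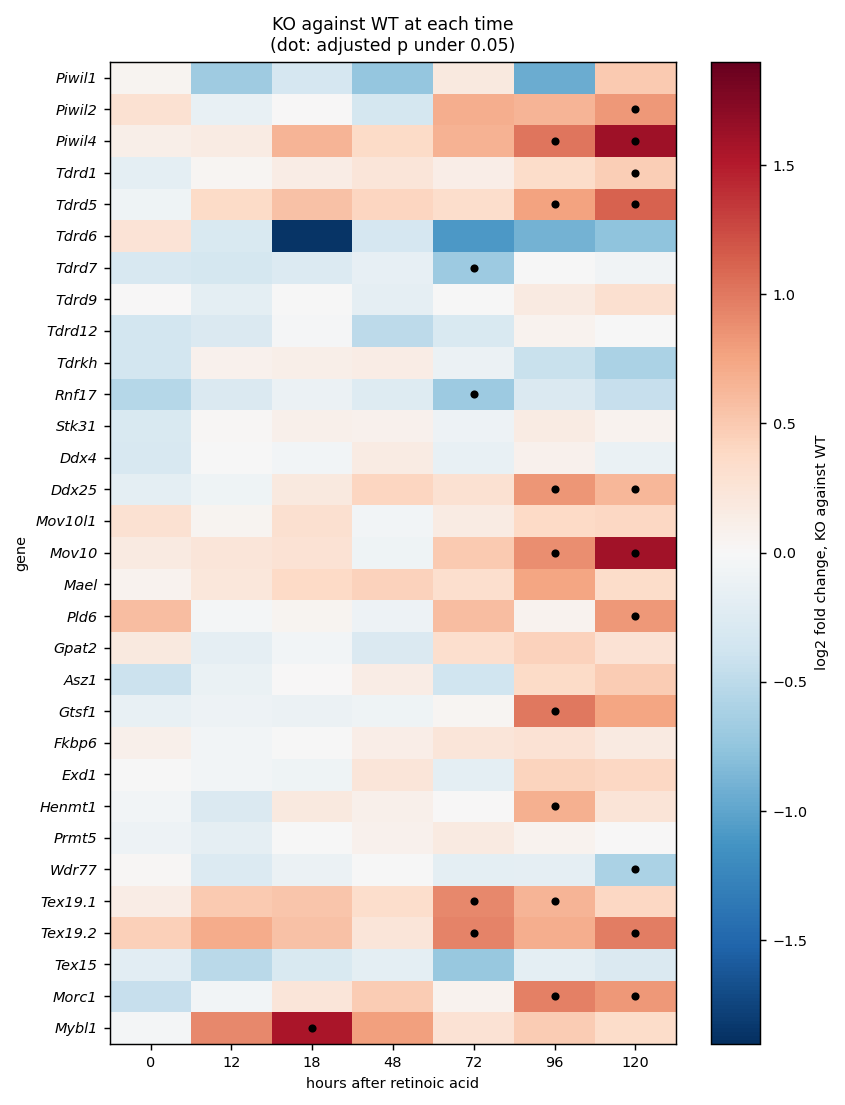
Log2 fold change of KO against WT for each of the 31 genes (rows) at each time (columns, hours after retinoic acid), red for higher and blue for lower in KO, with a dot where the adjusted p was under 0.05. Of the 23 dots 18 stand at 96 and 120 h, and 20 mark higher levels in KO.

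In each pair of values below, the first and second library of a group are divided by a slash. Among the PIWI genes, Piwil4 (GRCm38, GENCODE; chr9:14696230-14740733, minus strand) encodes the nuclear PIWI protein that directs DNA methylation of transposons in fetal germ cells. Piwil4 in WT stood at 165/108 CPM (0 h), 107/80.8 (12 h), 76.9/82.8 (18 h), 47.0/34.8 (48 h), 45.2/46.6 (72 h), 36.2/32.7 (96 h), 49.8/24.8 (120 h). In KO, Piwil4 was at 165/135 CPM (0 h), 88.4/120.0 (12 h), 118/117 (18 h), 41.9/64.3 (48 h), 75.4/75.0 (72 h), 81.0/63.4 (96 h), 127/121 (120 h). Both genotypes began high and fell to 48 h; WT then stayed low while both KO libraries at 120 h were above every WT library from 12 h on, or from 18 h on with the CPM table's value of 95.6 CPM for the shallow one. The late log2 change in WT was -1.76 (SE 0.20, adjusted p = 1.5e-06), and KO exceeded WT by 1.60 (SE 0.28, adjusted p = 7.9e-04) at 120 h.

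Piwil2 (chr14:70372477-70429383, minus strand) encodes the PIWI protein of spermatogonia, and its level could be touched by the sort itself. Piwil2 in WT stood at 1808/2044 CPM (0 h), 2222/2077 (12 h), 2848/1928 (18 h), 3188/2412 (48 h), 1343/1327 (72 h), 1205/1132 (96 h), 1438/1052 (120 h). In KO, Piwil2 was at 2418/2396 CPM (0 h), 2135/1742 (12 h), 2001/2517 (18 h), 2294/2125 (48 h), 2450.1/2030.2 (72 h), 2078/1756 (96 h), 2638/2192 (120 h). The 6 late WT libraries, at 1052 to 1438 CPM (median 1266), lay below every other library of either genotype, while KO stayed in 1 band throughout. The late log2 change in WT was -0.58 (SE 0.17, adjusted p = 0.00947), a call lost without the second 0 h library, and the 120 h difference was 0.82 (SE 0.21, adjusted p = 0.011). With the replicate block, the 72 and 96 h differences passed as well (adjusted p = 0.0265 and 0.0396).

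Piwil1 (chr5:128702524-128755474, plus strand), the PIWI gene of pachytene spermatocytes, was low throughout. Piwil1 in WT stood at 35.3/30.4 CPM (0 h), 50.6/31.4 (12 h), 50.0/37.9 (18 h), 44.7/37.1 (48 h), 27.8/16.3 (72 h), 27.2/51.6 (96 h), 21.0/17.5 (120 h). In KO, Piwil1 was at 37.1/31.8 CPM (0 h), 20.2/31.9 (12 h), 35.0/31.3 (18 h), 22.5/26.9 (48 h), 22.8/31.5 (72 h), 25.4/13.1 (96 h), 26.4/35.9 (120 h). The ranges of the genotypes over the course overlapped, and the mean log2 difference was -0.28 (SE 0.13, adjusted p = 0.0972).

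The Tudor genes split by direction, with 2 higher and 4 lower of 9 in the mean comparison. Tdrd5 (chr1:156255296-156303664, minus strand), which is needed for piRNA precursor processing, had the sharpest early fall of the set. Tdrd5 in WT stood at 325/277 CPM (0 h), 86.6/96.3 (12 h), 128/97.5 (18 h), 139/108 (48 h), 139/155 (72 h), 129/102 (96 h), 122/76.0 (120 h). In KO, Tdrd5 was at 295/286 CPM (0 h), 117/118 (12 h), 165/149 (18 h), 155/172 (48 h), 215/165 (72 h), 221/194 (96 h), 234/244 (120 h). Both genotypes dropped by 12 h, with early log2 changes of -1.59 (SE 0.17, adjusted p = 5.4e-07) in WT and -1.05 (SE 0.17, adjusted p = 2.7e-04) in KO, and KO then climbed to 120 h, when WT was back near its 12 h level. At 120 h KO exceeded WT by 1.13 log2 units (SE 0.21, adjusted p = 0.00133).

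Rnf17 (chr14:56402581-56525032, plus strand), which restrains piRNA amplification in meiotic cells, was lower in KO. Rnf17 in WT stood at 250.0/225 CPM (0 h), 212/233 (12 h), 241/196 (18 h), 232/201 (48 h), 225/285 (72 h), 237/149 (96 h), 192/179.8 (120 h). In KO, Rnf17 was at 149/183 CPM (0 h), 196/171 (12 h), 204/177 (18 h), 199.6/168 (48 h), 165/164 (72 h), 160.4/178 (96 h), 139/168 (120 h). Both KO libraries were below both WT libraries at 0, 12, 48, 72 and 120 h, and the genotypes overlapped at 18 and 96 h. The mean log2 difference was -0.37 (SE 0.07, adjusted p = 3.9e-04), and the 72 h call, at -0.69 (SE 0.19, adjusted p = 0.0435), was lost without any 1 of 4 libraries of that time.

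Tdrd7 (chr4:45965334-46034761, plus strand), a scaffold of germ granules, showed a mean difference of -0.26 log2 units (SE 0.07, adjusted p = 0.00666). Tdrd7 in WT stood at 205/154 CPM (0 h), 152/138 (12 h), 149.7/135 (18 h), 137/123 (48 h), 166/140.0 (72 h), 137/110.1 (96 h), 142/121 (120 h). In KO, Tdrd7 was at 156/140.4 CPM (0 h), 115/114 (12 h), 110.1/114 (18 h), 112/120.2 (48 h), 115/77.8 (72 h), 137/121 (96 h), 135/144 (120 h). The gap was widest at 72 h and the groups met at 96 and 120 h. Its late change in WT, -0.35 log2 units (SE 0.15, adjusted p = 0.0782), missed the threshold and passed with the replicate block (adjusted p = 0.0392).

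Tdrd12 (chr7:35469098-35537745, minus strand), a helicase of secondary piRNA production, and Tdrd6 (chr17:43615335-43630299, minus strand) were lower in KO by calls close to the threshold. Tdrd12 in WT stood at 101/82.3 CPM (0 h), 107/89.4 (12 h), 100.4/90.2 (18 h), 93.0/80.9 (48 h), 82.4/81.4 (72 h), 60.9/46.2 (96 h), 75.5/50.1 (120 h). In KO, Tdrd12 was at 72.1/73.6 CPM (0 h), 85.4/75.7 (12 h), 82.0/95.2 (18 h), 67.2/55.3 (48 h), 71.5/66.7 (72 h), 61.4/55.8 (96 h), 74.8/59.2 (120 h). Its mean difference was -0.20 log2 units (SE 0.08, adjusted p = 0.0458), with the genotypes overlapping at 18, 96 and 120 h. Tdrd6 in WT stood at 4.11/1.64 CPM (0 h), 2.56/3.37 (12 h), 6.16/3.80 (18 h), 4.86/2.79 (48 h), 1.68/5.75 (72 h), 1.38/5.38 (96 h), 2.90/4.48 (120 h). In KO, Tdrd6 was at 3.47/3.67 CPM (0 h), 1.91/3.03 (12 h), 2.01/0.438 (18 h), 2.68/3.59 (48 h), 2.07/0.926 (72 h), 2.28/0 (96 h), 2.49/1.94 (120 h). Several of these libraries were near the level of 3 counts, which in the shallow 96 h KO library is 3.28 CPM. The mean difference of Tdrd6, -0.71 log2 units (SE 0.28, adjusted p = 0.0469), was lost without the 3 shallow KO libraries.

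Of the remaining Tudor genes, Tdrd1, the main Piwil2 partner, fell late in WT by 0.67 on the log2 scale (SE 0.13), from 530 to 562 CPM at 0 h to 271 to 386 CPM (median 338), against 395 to 497 CPM (median 439.5) in late KO. Stk31, a Tudor protein with a kinase domain, fell by 0.76 (SE 0.14), and Tdrd9, an RNA helicase working with Piwil4, by 0.36 (SE 0.13); neither was called in the mean comparison. Tdrkh, the mitochondrial Tudor protein of piRNA trimming, passed neither threshold. Its exons share 36.7% of their length with Oaz3 on the other strand, and whether the counting used strand is not stated.

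The helicase genes and Mael were higher in KO at 4 of 5, Ddx4 being the exception at -0.06 log2 units (SE 0.07, adjusted p = 0.522). Mov10 (chr3:104794836-104818563, minus strand) encodes a helicase that restricts retroelements in many cell types. Mov10 in WT stood at 390.0/364 CPM (0 h), 238/210.0 (12 h), 236/196 (18 h), 389/393 (48 h), 219.6/265 (72 h), 165/202 (96 h), 133/94.8 (120 h). In KO, Mov10 was at 438/421 CPM (0 h), 249/275 (12 h), 244/251 (18 h), 327/409.7 (48 h), 360.2/352 (72 h), 407/299.7 (96 h), 404/352 (120 h). Both genotypes dipped at 12 and 18 h and returned by 48 h; the WT libraries then declined to the lowest values of the series, and the KO libraries remained within the range of 48 h or close to it. The difference at 120 h was 1.59 log2 units (SE 0.20, adjusted p = 3.9e-05). The test of genotype by time over all 7 times called 0.097% of all genes and none of the 31 by edgeR. Of the 31, 8 had an unadjusted p under 0.05 and 3 were called by DESeq2, for which shares of all genes are not given here. Mov10 had an edgeR adjusted p of 0.0519 in this test, and 0.0282 with the replicate block.

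Ddx25 (chr9:35536647-35558528, minus strand), a testis helicase regulated by gonadotropin, changed late by -1.08 log2 units (SE 0.15, adjusted p = 1.2e-05) in WT and by -0.31 (SE 0.16, adjusted p = 0.314) in KO. Ddx25 in WT stood at 166/152 CPM (0 h), 131/152 (12 h), 118/129 (18 h), 71.6/78.1 (48 h), 76.3/92.0 (72 h), 70.3/56.3 (96 h), 68.5/76.3 (120 h). In KO, Ddx25 was at 128/158 CPM (0 h), 144/122 (12 h), 144/121 (18 h), 88.2/110.4 (48 h), 105/107 (72 h), 133/102 (96 h), 102/152 (120 h). The genotypes were mixed up to 18 h and apart from 48 h, except that the CPM table's value for the second 72 h KO library, 77.5 CPM, lies within the WT pair. At 96 h KO exceeded WT by 0.83 log2 units (SE 0.20, adjusted p = 0.0197).

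Mael (chr1:166201201-166238747, minus strand), a germ granule protein needed for transposon silencing, had a mean difference of 0.36 log2 units (SE 0.09, adjusted p = 0.00321). Mael in WT stood at 253/369 CPM (0 h), 256/404 (12 h), 254/355 (18 h), 213/251 (48 h), 195/274 (72 h), 212/194 (96 h), 198/267 (120 h). In KO, Mael was at 286/378 CPM (0 h), 394/364 (12 h), 419/324 (18 h), 298/328 (48 h), 302/306 (72 h), 365/358 (96 h), 277/385 (120 h). The second WT library exceeded the first at 6 of 7 times, and the KO libraries lay above both WT libraries at 48 h and at the 3 late times. The CPM table's column that stands in for the second 72 h KO library is at 268 CPM, below the higher WT library. The 96 h difference, 0.75 log2 units (SE 0.24, adjusted p = 0.0737), passed with the replicate block (adjusted p = 0.0352). Mov10l1, the helicase that feeds precursors into processing, ranged from 508 to 619 CPM (median 583) in late WT and 637 to 888 CPM (median 749.6) in late KO, where the CPM table gives 562 and 603 CPM for the shallow libraries of 72 and 96 h, within the WT range.

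Of the 7 biogenesis factors, Pld6, the mitochondrial nuclease that cuts piRNA precursors, was called alone in the mean comparison, at 0.28 log2 units (SE 0.10, adjusted p = 0.0294), with all 7 estimates above 0. In WT, 4 of the 7 fell late. Gtsf1 (chr15:103402405-103430470, minus strand), a zinc finger partner of the PIWI proteins, fell most. Gtsf1 in WT stood at 51.9/55.6 CPM (0 h), 39.3/60.2 (12 h), 53.5/63.4 (18 h), 35.1/40.3 (48 h), 23.2/41.4 (72 h), 22.4/18.9 (96 h), 22.8/17.9 (120 h). In KO, Gtsf1 was at 43.5/55.8 CPM (0 h), 47.7/44.8 (12 h), 57.9/43.3 (18 h), 36.8/34.1 (48 h), 39.6/25.9 (72 h), 48.2/36.1 (96 h), 35.3/40.7 (120 h). WT was lowest at 96 and 120 h, where all KO libraries were higher; the late change was -1.12 log2 units (SE 0.20, adjusted p = 1.8e-04) in WT and -0.38 (SE 0.21, adjusted p = 0.365) in KO. The 96 h difference of 1.00 (SE 0.27, adjusted p = 0.0383) was lost without either WT library of that time.

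Asz1, a mitochondrial organiser of piRNA granules, fell late in WT by 0.86 (SE 0.17), Henmt1, which methylates piRNA ends, by 0.71 (SE 0.13), and Exd1, a cofactor of Tdrd12, by 0.68 (SE 0.17), all on the log2 scale. Henmt1 was higher in KO at 96 h, at 0.67 log2 units (SE 0.18, adjusted p = 0.034), a call lost without the 3 shallow libraries, and 14.7% of its exon length overlaps Gm9857 on the other strand. Gpat2, at -0.35 log2 units (SE 0.15, adjusted p = 0.0769), and Fkbp6, at -0.13 (SE 0.15, adjusted p = 0.565), passed no threshold.

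Wdr77 (chr3:105959369-105970037, plus strand), the cofactor of the arginine methyltransferase Prmt5, was the only member called higher late in WT. Wdr77 in WT stood at 142/166 CPM (0 h), 196/212 (12 h), 192/212 (18 h), 183/188 (48 h), 176/225 (72 h), 198/177 (96 h), 193/239 (120 h). In KO, Wdr77 was at 153/166 CPM (0 h), 184/154 (12 h), 165/187 (18 h), 188/181 (48 h), 196/169 (72 h), 169/185 (96 h), 151/165 (120 h). WT rose late by 0.44 (SE 0.13, adjusted p = 0.0157), and KO was lower by a log2 difference of -0.61 (SE 0.16, adjusted p = 0.0146) at 120 h; both calls were lost without the 3 shallow KO libraries. Of its exon length 31.5% is shared with Gm42890 and Atp5f1. Prmt5, at 0.01 log2 units (SE 0.09, adjusted p = 0.975), was not called.

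Of the repressors, Tex19.1 (chr11:121146143-121148319, plus strand) and Tex19.2 (chr11:121116215-121118677, minus strand) are neighbouring paralogs, of which Tex19.1 holds down retrotransposons. Reads of one paralog could have been counted for the other. Tex19.1 in WT stood at 313/361 CPM (0 h), 360.1/439.8 (12 h), 395/439.7 (18 h), 423/453 (48 h), 204/237 (72 h), 206/232 (96 h), 178/180.4 (120 h). In KO, Tex19.1 was at 313/446 CPM (0 h), 599.5/517 (12 h), 604/523 (18 h), 533/569 (48 h), 423/436 (72 h), 378/340.2 (96 h), 221/307 (120 h). Tex19.1 rose early in KO, by 0.61 log2 units (SE 0.16, adjusted p = 0.0101), and not past the threshold in WT, at 0.25 (SE 0.15, adjusted p = 0.33); the difference of these changes was 0.37 (SE 0.21, adjusted p = 0.627). The KO call was lost without the first KO 0 h library. From 12 h on, both KO libraries exceeded both WT libraries at every time. The 72 h difference was 0.91 log2 units (SE 0.18, adjusted p = 0.00727).

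Tex19.2 in WT stood at 72.9/80.8 CPM (0 h), 65.5/72.7 (12 h), 82.4/97.5 (18 h), 71.0/88.8 (48 h), 37.7/46.2 (72 h), 30.8/61.0 (96 h), 34.8/37.9 (120 h). In KO, Tex19.2 was at 116/98.3 CPM (0 h), 108/115 (12 h), 141/107 (18 h), 91.6/95.7 (48 h), 85.2/82.4 (72 h), 86.2/64.5 (96 h), 76.5/82.4 (120 h). All KO libraries of a time lay above both WT libraries of that time, 0 h included, and the mean log2 difference was 0.65 (SE 0.09, adjusted p = 5.5e-06). The late fall in WT was -0.85 log2 units (SE 0.18, adjusted p = 8.3e-04).

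Morc1 (chr16:48431237-48630900, plus strand), a nuclear ATPase that represses transposons in male germ cells, stood higher in both WT libraries than in both KO libraries at 0 h, with no gene called at that time, and was higher in KO late. Morc1 in WT stood at 232/187 CPM (0 h), 128/119 (12 h), 119/90.8 (18 h), 82.1/72.7 (48 h), 87.7/109.7 (72 h), 72.7/52.6 (96 h), 68.9/55.1 (120 h). In KO, Morc1 was at 138/178 CPM (0 h), 132/105 (12 h), 129/102 (18 h), 103/113 (48 h), 112/102 (72 h), 152/99.5 (96 h), 119/125 (120 h). WT fell early, by a log2 change of -0.91 (SE 0.19, adjusted p = 0.00136), and late, by -1.47 (SE 0.17, adjusted p = 1.3e-06). At 96 h KO exceeded WT by 0.96 log2 units (SE 0.23, adjusted p = 0.019) and at 120 h by 0.83 (SE 0.23, adjusted p = 0.0165); the early WT call was lost without the first WT 0 h library.

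Tex15 (chr8:33516738-33585582, plus strand), which acts with Piwil4 in transposon methylation, was lower in KO. Tex15 in WT stood at 736/763 CPM (0 h), 1027/1423 (12 h), 1132/944 (18 h), 893/967 (48 h), 718/1321 (72 h), 730.5/484 (96 h), 715/707 (120 h). In KO, Tex15 was at 625/699.9 CPM (0 h), 1036/662 (12 h), 789/816 (18 h), 941/699 (48 h), 499/784 (72 h), 485/661 (96 h), 588/724 (120 h). The WT pairs at 12, 72 and 96 h were wide apart, and the genotypes overlapped at 5 of 7 times, or at 12, 48 and 96 h with the CPM table's values for the shallow KO libraries. The mean difference was -0.34 log2 units (SE 0.10, adjusted p = 0.0101), a call lost with a replicate block per genotype.

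Mybl1 (chr1:9667415-9700209, minus strand), the transcription factor of pachytene piRNA loci, was scarce. Mybl1 in WT stood at 14.5/9.98 CPM (0 h), 8.28/7.51 (12 h), 4.47/3.31 (18 h), 5.79/3.32 (48 h), 5.28/7.81 (72 h), 4.70/2.78 (96 h), 5.79/5.22 (120 h). In KO, Mybl1 was at 9.35/15.4 CPM (0 h), 17.4/11.8 (12 h), 11.4/10.3 (18 h), 8.79/6.88 (48 h), 8.11/8.34 (72 h), 5.62/5.47 (96 h), 8.13/6.79 (120 h). WT was at 3.31 to 4.47 CPM by 18 h, where KO exceeded it by 1.55 log2 units (SE 0.36, adjusted p = 0.0139), which no longer passed with any of its 4 libraries removed. The early change was -1.16 log2 units (SE 0.29, adjusted p = 0.00726) in WT, lost without the first 0 h library, and 0.10 (SE 0.30, adjusted p = 0.878) in KO; the difference of 1.27 (SE 0.42, adjusted p = 0.258) was not called.

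**Figure D5:**
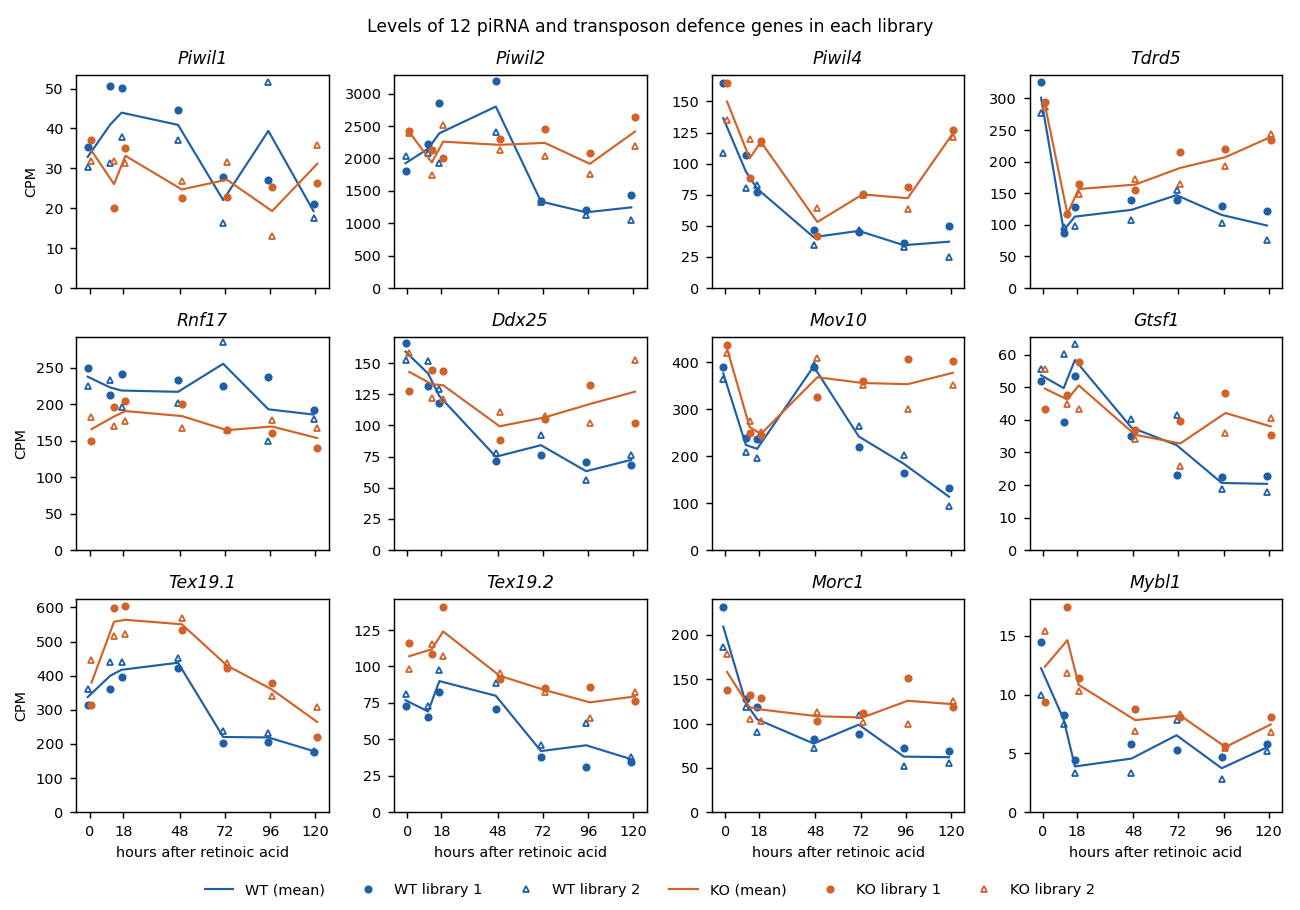
CPM of 12 of the genes against hours after retinoic acid, with lines for the mean of the 2 libraries of a group, filled circles for the first and open triangles for the second library, WT in blue and KO in orange. All of these genes except Piwil1 and Rnf17 show both KO libraries above both WT libraries at 96 and 120 h. The genes were chosen for display with earlier results of these data known, so this pattern does not stand for the whole set. Tdrd7, Tdrd12, Ddx4 and Tex15, for example, overlapped between genotypes at both times. The share of all genes with this pattern is not given here. Mybl1 had only 5 counts in the second 96 h KO library.

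In the first hours, with 12 and 18 h averaged, WT had 6 of 31 genes lower and none higher (19.4%, against 15.8% of all genes called and 9.07% called lower), namely Tdrd5, Mybl1, Morc1, Mov10, Piwil4 and Tdrd1. Without the first WT 0 h library 2 calls were left. KO had 3 calls (9.68%, against 14% of all genes), with Tdrd5 and Mov10 lower and Tex19.1 higher; without the first KO 0 h library 1 was left. The early changes did not differ between genotypes past the threshold for any of the 31 by edgeR or DESeq2, with 2 at an unadjusted p under 0.05, while 0.36% of all genes were called.

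Other genes of piRNA biology and of transposon control were read from lists apart from the 31. Of 14 further genes listed as piRNA factors, 5 were higher (35.7%, against 16.9% of all genes) and 3 lower (21.4%, against 20.7%) in the mean comparison. This list also holds RNA-binding genes of spermatogonia: Nanos2 and Dnd1 were both among the 5. Nanos2 is also in the list of undifferentiated spermatogonia markers. On the log2 scale, Spocd1, which links Piwil4 to DNA methylation, was higher in KO by 1.13 (SE 0.09), Nanos2, a stem cell RNA-binding protein, by 0.92 (SE 0.25) and Adad2 by 0.51 (SE 0.09). Ybx2, a germ cell mRNA-binding protein, stood at -0.63 (SE 0.11), Kif17 at -0.39 (SE 0.09) and Cnot7 at -0.21 (SE 0.08). Nanos2 was scarce, with group means of 0.382 to 9.23 CPM and 0 counts in 1 library. Late in WT 6 of these 14 fell (42.9%, against 16.5% of all genes), led by Spocd1 at -1.73 log2 units (SE 0.17), and Ybx2 rose by 2.19 (SE 0.25). By edgeR, Spocd1 was the only one of the 14 called late in KO, at -0.95 log2 units (SE 0.18), with 5 at an unadjusted p under 0.05 and 3 called by DESeq2.

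Of 18 chromatin and DNA methylation repressors, averaged over the 7 times, 3 were higher in KO (16.7%, against 16.9% of all genes), with Dnmt3l, the cofactor of de novo methylation, at 1.75 log2 units (SE 0.18), Ehmt2 at 0.51 (SE 0.08) and Dnmt3a at 0.17 (SE 0.06), and 7 lower (38.9%, against 20.7%), led by Fam208a of the HUSH complex at -0.73 (SE 0.11), Uhrf1 at -0.55 (SE 0.11) and Hells at -0.49 (SE 0.10). Late in WT 6 of 18 rose (33.3%, against 15.1% of all genes), among them the maintenance methylation genes Uhrf1 at 1.22 log2 units (SE 0.25) and Dnmt1 at 1.16 (SE 0.20), and 3 fell (16.7%, against 16.5%), Dnmt3l most at -2.30 (SE 0.35). None of the 18 was called late in KO by edgeR, with 5 at an unadjusted p under 0.05 and 3 called by DESeq2. Of 9 cytosolic restriction genes 3 were higher in KO (33.3%, against 16.9% of all genes), Apobec3, a cytidine deaminase, at 0.99 log2 units (SE 0.18), Samhd1 at 0.41 (SE 0.06) and Dicer1 at 0.26 (SE 0.06), and none was lower. Apobec3 was scarce, with group means of 0.627 to 7.00 CPM, where 3 counts in the shallow KO libraries are 2.78 to 3.28 CPM. Late in WT 4 of these 9 fell (44.4%, against 16.5% of all genes) and Zc3hav1 rose by 0.64 log2 units (SE 0.23).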

How the data were processed

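Read counts per gene were deposited by the authors in a pair of tables with 1 library of each group. The submitters' processing notes name Bowtie, TopHat, Cufflinks and mm10; their versions, the counter and strand use are not given in the sources used here. In the authors' deposited tables named FPKM the values are CPM: 25 of 28 columns equalled a count column over its total within 0.001, with KO numbers swapped between tables (11 columns). The other 3, KO at 72, 96 and 120 h, matched none, and their whole reads were recovered (100% of values within 0.1 read) for an alternative. Of 43280 features 27 with date-like names were left out.

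Tests on the deposited counts ran in R 4.3.3 with edgeR 4.0.16 (TMM, default expression filter, 14 group means, robust quasi-likelihood, Benjamini-Hochberg adjustment per comparison over 17519 genes, threshold 0.05) and in alternatives with DESeq2 1.42.0 and limma 3.58.1 on log2(CPM + 1). CPM is the count over the library total. In the first table, for WT only, 27.1 to 33.1% of reads fell outside features, 14.3 to 16.2% aligned at several places and 0.68 to 0.785% hit more than 1 feature; none entered the totals. The floor for an undetected gene is 3 counts, which covers counting error only. Scripts were tested on simulated data.

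The numbers pair the WT samples: deviations from group means correlated in 21 of 21 WT pairs of times (0.259 to 0.517), in KO over 0.1 in 7 of 21, and between genotypes in 2 of 49. The highest in KO were those among 72, 96 and 120 h (0.509 to 0.567). The members and lists were chosen with earlier results of these data known. Values in every library are given for the 3 PIWI genes and for up to 8 genes each way called in the mean comparison. They are also given for up to 6 each way called late in WT. For other lists, changes are given for up to 3 genes each way. Gene positions and exon lengths are GENCODE M21 (GRCm38); promoters are RefSeq.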

Additional observations from a re-analysis of the deposited data

How the results depend on the processing

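No call of a gene changed direction in the 5236 values recomputed for the 141 calls of single genes. Of these values 4830 stayed past the threshold and 406 did not. For each call, 28 of the values came from leaving out 1 library. For single times most such libraries lay outside the comparison, so that many values could move little. With single libraries left out, the number of the 31 genes called ranged from 15 to 19 in the mean comparison, 2 to 6 early and 15 to 22 late in WT, 1 to 3 early and 0 to 2 late in KO, 0 to 4 for the difference in late change and 0 to 1 for genotype by time; none was called for the difference in early change. Calls at single times ranged from 16 to 23 for KO against WT, 43 to 66 of 186 in WT and 1 to 10 in KO against 0 h (62 and 8 with all libraries).

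The count late in KO was 1 with RLE size factors, with DESeq2, without the filter and with recovered reads. The difference in late change gave 3 by DESeq2, 1 without the filter and 1 with recovered reads. Genotype by time gave 1 with RLE, with limma, with recovered reads and without the 3 shallow KO libraries, 3 by DESeq2 and 4 without the filter. The number of genes whose late KO libraries all lay above WT was 5 with recovered reads and 9 to 12 with single libraries left out; all below WT, it was 0 to 1. Limma on 4 means called 0 in the mean comparison. No scaling moved the median of all genes by more than 0.0908 (log2).

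With the replicate block the counts were 19 in the mean comparison, 1 late in KO, 1 for the difference in late change and 1 for genotype by time. Block settings chosen after seeing the data, since KO numbers differ between tables, gave 1 late in KO and 1 for genotype by time with the CPM tables' numbers. With a block per genotype they gave 18 in the mean comparison (5 of the 19 calls lost), 5 early and 2 late in KO, 3 for the difference in late change, 3 for genotype by time and 13 calls of single times in KO. The fit on 4 means and the settings for late libraries that do not overlap were also chosen after seeing the data. The shallow late KO libraries limit scarce genes: Tdrd6 had 0 counts in 1 of them.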
